A study of Mus musculus with 12 samples.

Results

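Adipokines, the hormones and other factors that fat cells secrete, were examined in the epididymal white adipose tissue (eWAT, visceral fat beside the epididymis) of C57BL/6 mice. The members were 8 genes taken by symbol out of the 25232 genes of the table: Adipoq, Lep, Retn, Cfd, Rbp4, Nampt, Apln and Agt. All 8 had a value in each of the 12 libraries and all 8 passed the filter on low values (CPM, the read count of a gene scaled to a common library total, of at least 0.5 in at least 3 libraries), as did 15597 genes in all. The tissue was sequenced as total RNA from 4 groups of 3 biological replicates. These were HFD TKO (genotype labelled TET KO, high-fat diet), HFD WT (wild type, high-fat diet), ND TKO (TET KO, normal diet) and ND WT (wild type, normal diet). The series title places the loss of the TET proteins, the enzymes that oxidise methylated cytosine in DNA, in adipocytes. The labels give neither the promoter that drives the deletion, nor the TET genes or exons removed, nor the age of the mice and their time on the diet. All 4 groups shared the strain and the fat pad, and the study's question was how transcription differs between WT and TET KO fat.

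Adipose tissue is an endocrine organ. Adiponectin (Adipoq) and leptin (Lep) are released almost only by fat cells, and leptin in the blood is known to rise with fat mass while adiponectin is known to fall in obesity. Resistin (Retn), a fat cell hormone in mice, is made mainly by macrophages in humans. Adipsin (Cfd) is complement factor D, the protease that starts the alternative complement pathway, and retinol-binding protein (Rbp4), visfatin (Nampt), apelin (Apln) and angiotensinogen (Agt) are made by fat as well as by other tissues. In bulk tissue, fewer cells of a type and less RNA per cell cannot be told apart.

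The RefSeq sequences of the 250 bases before the start of 5 members (GRCm38.p6, the assembly also called mm10) are shown because TET enzymes act on methylated CpG, the letter pair CG, and because the members differed widely in how many they hold there. Rbp4 and Nampt, called lower on the high-fat diet in WT fat only, and Apln are not printed. The 5 shown are Adipoq, Agt, Retn and Cfd, called lower on that diet in both genotypes, and Lep, called higher in both. Each is written 5′ to 3′ on the gene's own strand, with every CG in capitals. Adipoq is the sequence of chr16:23146286-23146535 (plus strand), Agt that of chr8:124569707-124569956 (minus strand), Retn that of chr8:3655520-3655769 (plus strand), Cfd that of chr10:79890603-79890852 (plus strand) and Lep that of chr6:29059971-29060220 (plus strand).
Adipoq: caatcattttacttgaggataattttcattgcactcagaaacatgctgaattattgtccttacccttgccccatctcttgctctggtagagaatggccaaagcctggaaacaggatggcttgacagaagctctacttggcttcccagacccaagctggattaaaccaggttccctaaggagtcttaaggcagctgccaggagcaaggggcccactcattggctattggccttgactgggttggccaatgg
Agt: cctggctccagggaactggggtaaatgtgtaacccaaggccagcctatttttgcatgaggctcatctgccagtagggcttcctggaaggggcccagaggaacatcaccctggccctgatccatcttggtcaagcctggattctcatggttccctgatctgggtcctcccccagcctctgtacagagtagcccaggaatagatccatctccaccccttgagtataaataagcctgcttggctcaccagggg
Retn: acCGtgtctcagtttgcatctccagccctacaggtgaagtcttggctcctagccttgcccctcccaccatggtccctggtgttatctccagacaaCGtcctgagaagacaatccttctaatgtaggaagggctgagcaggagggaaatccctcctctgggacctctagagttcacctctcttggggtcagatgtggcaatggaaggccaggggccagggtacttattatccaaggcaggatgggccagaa
Cfd: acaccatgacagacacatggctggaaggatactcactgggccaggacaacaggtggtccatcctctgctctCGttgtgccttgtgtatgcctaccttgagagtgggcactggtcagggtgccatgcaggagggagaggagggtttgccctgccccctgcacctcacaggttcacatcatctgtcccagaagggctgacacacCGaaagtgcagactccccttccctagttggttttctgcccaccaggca
Lep: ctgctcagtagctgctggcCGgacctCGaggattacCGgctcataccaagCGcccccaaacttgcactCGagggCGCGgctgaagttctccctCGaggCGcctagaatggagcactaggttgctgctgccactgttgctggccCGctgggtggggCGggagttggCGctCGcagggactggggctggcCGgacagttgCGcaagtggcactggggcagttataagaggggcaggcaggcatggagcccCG
The stretches of Adipoq and Agt held 0 CG, as did 7.87% of 32851 mouse promoters of the same length, and those of Retn and Cfd held 2 each, where 29.0% of promoters held that many or fewer. The Lep stretch held 16, that of Apln 12 and that of Nampt 27, against a median of 6 over all promoters. Rbp4 is listed with 2 starts, whose stretches held 5 and 28. The members' promoters thus ran between CG-free and CG-dense, and DNA methylation was not analysed here.

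The windows of the 8 members, for Rbp4 both, were searched on both strands for 6 short motifs. The letters TTGCGCAA, a palindrome bound by C/EBP factors, stood 55 bases before the start of Lep and in 0.164% of all promoters. TATAAA, the TATA box, stood 30 bases before the start of Agt, in the Rbp4 window with 28 CG and in 12.4% of promoters. CCAAT, the box of that name, was found 3 times in Adipoq and 1 time in the Rbp4 window with 5 CG, and in 33.8% of promoters. AGGTCA, a nuclear receptor motif, found in 14.0% of promoters, stood in Nampt alone among the members, and GGGCGG, the GC box, in 32.7%, stood in Lep, Apln, Nampt and the Rbp4 window with 28 CG. CACGTG, an E-box, in 6.02% of promoters, was in none of the members' windows. No match overlapped one of another motif, and a match is a description of letters, not of a site in use.

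Library depth lay between 20973140 and 25606629 reads, so that 3 reads, the limit that a count of 0 allows, stood for 0.117 to 0.143 CPM; this covers counting error only. Each replicate pair differed by more than sampling noise, and p-values measure the spread between these samples. The chi-square per degree of freedom over genes at large is larger where a pair differs more. It was 46.0 and 41.1 for HFD TKO replicate 1 against replicates 2 and 3, beside 7.05 between those. For ND WT replicate 3 it was 46.9 and 73.4 against replicates 1 and 2, beside 17.9 between those. In HFD WT and ND TKO pairs it lay between 6.28 and 27.1. No TET gene was called lower in TKO fat. Gene totals can count reads outside the removed exons and so do not check the labels. Tet1 lay at 1.65 to 3.07 CPM in HFD TKO and 0.841 to 0.996 CPM in HFD WT libraries, and at 2.22 to 2.98 CPM in ND TKO and 0.415 to 1.48 CPM in ND WT libraries. Tet1 was called higher in TKO fat on both diets by limma (adjusted p = 0.010 on HFD and 0.0185 on ND), while Tet2 and Tet3 were called in neither. Groups are therefore named as labelled.

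Markers of the cell types of the pad moved with the groups. The summed level of 12 mature adipocyte genes, none of them a member and all detected, lay at 48982 to 50527 CPM in HFD TKO, 26889 to 29195 CPM in HFD WT, 58616 to 62530 CPM in ND TKO and 49215 to 53472 CPM in ND WT. The 10 macrophage genes summed to 1187 to 1362 CPM in HFD TKO, 4563 to 5357 CPM in HFD WT, 671 to 930 CPM in ND TKO and 814 to 1226 CPM in ND WT. The HFD WT libraries thus stood apart, lowest in adipocyte and highest in macrophage transcripts, and the part of these shifts in the members' changes was not tested. The adipocyte scaling given below is no such test, since it cannot tell fewer fat cells and less RNA per cell apart. Stromal sums and T and NK cell sums were also higher in every HFD WT library than in any other. B cell sums were highest there on average, with ND WT overlapping. In such sums the most abundant gene weighs most. In HFD WT the highest value of a single gene was 2097 CPM for the stromal list, whose sum averaged 2664 CPM. For the macrophage list it was 2602 CPM, beside a mean sum of 4969 CPM. Endothelial sums overlapped between all groups. The 8 epididymis and testis genes summed to at most 3.99 CPM in any library, with Lcn5 and Prm2 at 0 in all 12 libraries.

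On the high-fat diet, 5 of the 8 members were called higher in TKO than in WT fat and none lower: Adipoq, Retn, Rbp4, Agt and Nampt, the last of which turned to lower when libraries were scaled to adipocyte genes. Of all genes tested, 15.2% were called higher and 31.6% lower, 46.7% in all. The median log2 change of the members was 1.30, beside -0.10 over all genes. On the normal diet, 2 members were called lower in TKO fat (Retn and Cfd) and none higher, where 5.7% of all genes were called, 3.54% lower and 2.16% higher. The members' median was then -0.13, beside -0.06 over all genes. At an unadjusted p under 0.05 in limma, 0 members were lower on HFD and 1 was higher on ND (Apln).

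The high-fat diet moved every member in WT fat. Lep and Apln were called higher and the other 6 lower, where 58.1% of all genes were called, 37.8% higher and 20.3% lower, and the members' median of -1.80 stood beside 0.13 over all genes. In TKO fat the diet moved 5 members, Lep higher and Adipoq, Retn, Cfd and Agt lower, where 22.1% of genes were called, 16.2% higher and 5.9% lower. The members' median in TKO fat was -0.46, beside 0.07 over all genes. The interaction of genotype and diet, in which the TKO effect on ND is subtracted from that on HFD, was called for Adipoq, Retn, Cfd, Rbp4 and Agt, each positive, where 28.7% of all genes were called, 9.94% positive and 18.8% negative. The members' median interaction was 1.37, beside -0.06 over all genes. These comparisons share groups (HFD WT enters 2 of the 4 pairwise ones), so that the counts are not independent of each other.

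The split of all genes between higher and lower depended on scaling. With TMM scaling, 3539 genes were called higher and 3854 lower in HFD TKO against HFD WT, where the CPM values as deposited gave 2365 and 4923. With TMM scaling the HFD effect counted 4551 higher and 4394 lower in WT, against 5892 and 3173, and 1521 higher and 1394 lower in TKO, against 2525 and 921. The ND comparison counted 498 higher and 423 lower with TMM scaling, against 337 and 552. No call of Adipoq, Retn, Rbp4 or Agt changed with TMM scaling.

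**Figure D1:**
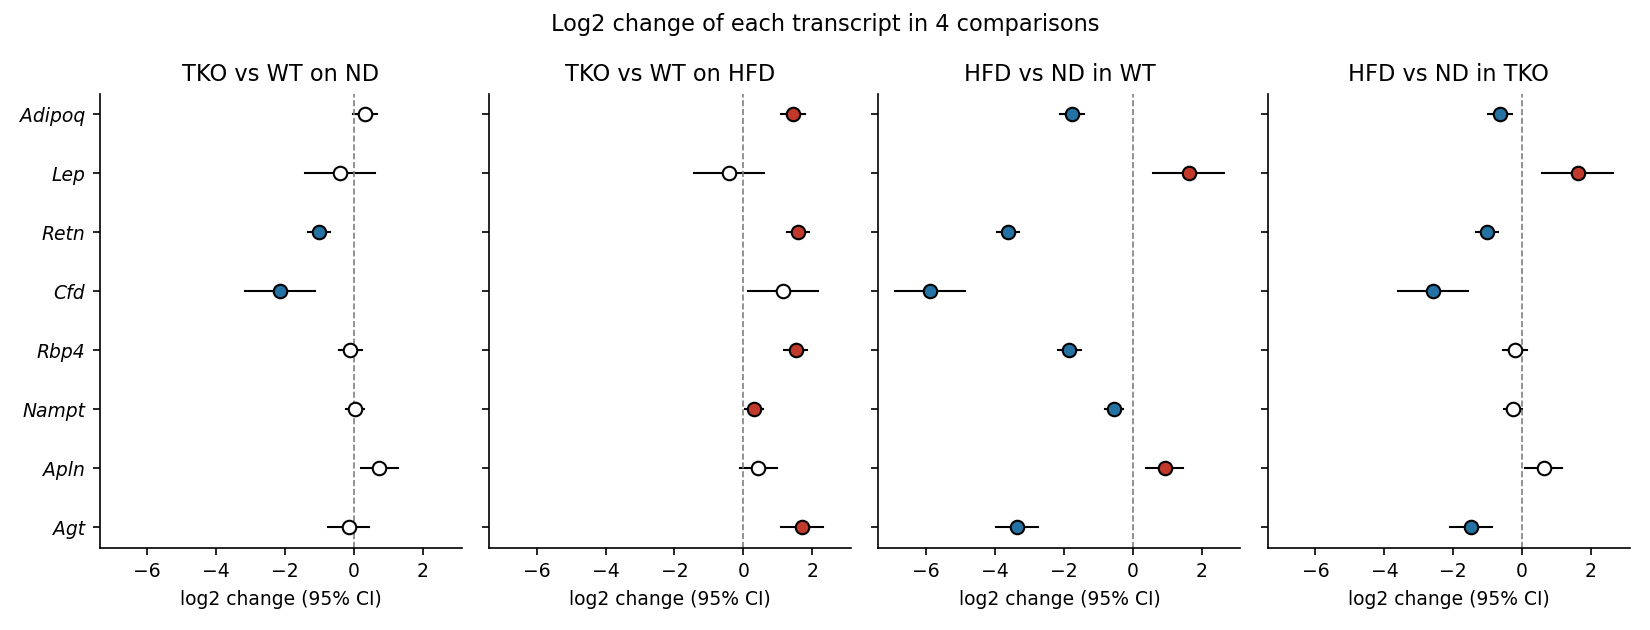
Log2 change of each member in the 4 pairwise comparisons, with its 95% confidence interval from limma; red (higher) and blue (lower) points passed an adjusted p of 0.05 and white points did not. Adipoq, Retn, Rbp4 and Agt lie right of 0 in HFD TKO against HFD WT (1.44, 1.59, 1.53 and 1.71) and left of 0 in HFD WT against ND WT, while the sign of Nampt depends on the scaling.

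Adipoq (chr16:23146536-23157968) encodes adiponectin, an insulin-sensitising hormone. It had 3004, 4293 and 4548 CPM in HFD TKO libraries, against 1436, 1349 and 1501 CPM in HFD WT libraries. All 3 HFD TKO libraries lay above all HFD WT ones, at 2.72 times their level (log2 change 1.44 ± 0.16, SE; limma, adjusted p = 1.7e-05). On the normal diet it had 6242, 5663 and 6448 CPM in ND TKO libraries, against 5025, 5106 and 4437 CPM in ND WT libraries. Those groups did not overlap either, but the change of 0.33 (95% interval -0.01 to 0.68) was not called by limma (adjusted p = 0.238, with 0.0323 to 0.449 over the alternatives, the lowest from DESeq2).

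The diet lowered Adipoq in both genotypes. In WT the level was 3.39-fold lower on HFD (-1.76 ± 0.16; limma, adjusted p = 2.06e-06), and in TKO it was 1.57-fold lower (-0.65 ± 0.16; adjusted p = 0.0138). The call in TKO was lost without the filter on low values (adjusted p = 0.0624) and without ND TKO replicate 3 (-0.61, adjusted p = 0.0587), within a range of 1.56e-06 to 0.0624 over the alternatives. The TKO effect was larger on HFD than on ND by 1.11 ± 0.22 (limma, adjusted p = 0.00321), which fell to 0.25 (adjusted p = 0.285, the highest of a range that begins at 1.84e-09) with libraries scaled to adipocyte genes.

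Lep (chr6:29060221-29073876) encodes leptin, the satiety hormone. The 3 HFD TKO libraries had 3001, 1927 and 1891 CPM and the HFD WT libraries 3095, 3098 and 2710 CPM. Replicate 1 of HFD TKO lay inside the range of HFD WT and the other two below it, and the change of -0.42 (95% interval -1.44 to 0.61) was not called by limma (adjusted p = 0.503). Lep had 984, 611 and 629 CPM in ND TKO libraries, against 689, 495 and 2588 CPM in ND WT libraries. ND WT replicate 3 stood far above every other ND library and inside the range of the HFD libraries, and the change of -0.41 (95% interval -1.43 to 0.62) was not called (limma, adjusted p = 0.661). Without that library it was 0.31 (adjusted p = 0.444, with 0.318 to 0.832 over the alternatives).

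Lep rose on the high-fat diet, by 3.08-fold in WT (1.62 ± 0.47; limma, adjusted p = 0.0107) and by 3.07-fold in TKO (1.62 ± 0.47; adjusted p = 0.0297). The lowest HFD library still lay above the highest ND library within each genotype. The call in WT was lost with edgeR (1.08, adjusted p = 0.0813) and DESeq2 (1.09, adjusted p = 0.111) on recovered reads, where the alternatives began at 3.03e-06. Without ND WT replicate 3 the difference in WT was 2.34 (adjusted p = 1.01e-05). The call in TKO was lost with edgeR (adjusted p = 0.0527), without the filter on low values (adjusted p = 0.0527) and without HFD TKO replicate 1 (1.40, adjusted p = 0.0963), 2 (1.72, 0.0502) or 3 (1.73, 0.0571) or ND TKO replicate 2 (adjusted p = 0.0851) or 3 (adjusted p = 0.101), in a range that began at 0.000136. The interaction of -0.01 (95% interval -1.46 to 1.44) was not called (limma, adjusted p = 0.995).

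Leaving out both ND WT replicate 3 and HFD TKO replicate 1, an alternative added after seeing the data, changed the reading of Lep. The TKO effect on HFD was then -0.63 (limma, adjusted p = 0.0226, with a range of 0.0198 to 0.783 over the alternatives) and the interaction -0.94 (adjusted p = 0.0245, with a range up to 0.998). Both libraries had been singled out by their values, so these calls are a description of the remaining 10 libraries.

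Retn (chr8:3655770-3659818) encodes resistin, which opposes insulin action in mice. It had 285, 377 and 372 CPM in HFD TKO libraries, against 131, 115 and 94.9 CPM in HFD WT libraries. It had 618, 648 and 830 CPM in ND TKO libraries, against 1405, 1502 and 1317 CPM in ND WT libraries. TKO fat thus held more Retn than WT fat on HFD and less on ND, with no overlap on either diet. It was 3.02-fold higher on HFD (1.59 ± 0.15; limma, adjusted p = 4.51e-06) and 2.03-fold lower on ND (-1.02 ± 0.15; adjusted p = 0.00259).

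The 4 groups of Retn did not overlap at all, in the order HFD WT, HFD TKO, ND TKO, ND WT from low to high. The diet lowered it 12.4-fold in WT (-3.63 ± 0.15; limma, adjusted p = 1.05e-08) and 2.02-fold in TKO (-1.02 ± 0.15; adjusted p = 0.00163). The interaction was 2.61 ± 0.21 (limma, adjusted p = 1.26e-05). All 5 calls of Retn held under every alternative run, with the interaction between 1.75 and 2.79.

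Cfd (chr10:79890853-79892655) encodes adipsin. Its libraries had 150, 440 and 573 CPM in HFD TKO, against 157, 123 and 176 CPM in HFD WT. Replicate 1 of HFD TKO lay inside the HFD WT range and the other two were well above it, and the change of 1.16 ± 0.47 (95% interval 0.14 to 2.17) was not called by limma (adjusted p = 0.0600). It was called with TMM scaling (1.29, adjusted p = 0.0335), edgeR (1.48, adjusted p = 0.0171) and DESeq2 (1.47, adjusted p = 0.00512), without HFD TKO replicate 1 (1.74, adjusted p = 0.00336), without ND WT replicate 3 (1.16, adjusted p = 0.0387) and without both (adjusted p = 0.000365), in a range up to 0.534.

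On the normal diet Cfd had 1380, 2083 and 2889 CPM in ND TKO libraries, against 10483, 13059 and 5225 CPM in ND WT libraries. The groups did not overlap, and Cfd was 4.41-fold lower in TKO (-2.14 ± 0.47; limma, adjusted p = 0.0211). That call was lost without ND TKO replicate 1 (-1.87, adjusted p = 0.0800) or 2 (-2.16, adjusted p = 0.0542) and without ND WT replicate 1 (-2.03, adjusted p = 0.0808) or 2 (-1.87, adjusted p = 0.0782), in a range that began at 0.000235.

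The diet effect on Cfd was the largest of any member. In WT it was 59.2-fold lower on HFD (-5.89 ± 0.47; limma, adjusted p = 7.21e-07), and in TKO 6.02-fold lower (-2.59 ± 0.47; adjusted p = 0.00373). The interaction was 3.30 ± 0.66 (limma, adjusted p = 0.003), and it was called under every alternative run, at 2.44 to 4.27.

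Rbp4 (chr19:38116620-38125321) encodes a carrier of retinol in the blood. It had 495, 404 and 431 CPM in HFD TKO libraries, against 160, 154 and 144 CPM in HFD WT libraries. It had 501, 472 and 559 CPM in ND TKO libraries, against 564, 420 and 703 CPM in ND WT libraries. The HFD WT libraries stood alone at the low end, and the other 3 groups overlapped. Rbp4 was 2.88-fold higher in TKO on HFD (1.53 ± 0.15; limma, adjusted p = 8.45e-06), and the change on ND of -0.11 (95% interval -0.45 to 0.23) was not called (adjusted p = 0.731).

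On the high-fat diet Rbp4 was 3.59-fold lower in WT (-1.84 ± 0.15; limma, adjusted p = 1.1e-06). In TKO the diet change of -0.20 (95% interval -0.54 to 0.13) was not called (limma, adjusted p = 0.373). The difference between the genotype effects on both diets was 1.64 ± 0.22 (limma, adjusted p = 0.000209), and the 3 calls of Rbp4 held under every alternative run.

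Agt (chr8:124556587-124569706) encodes angiotensinogen, the precursor of the angiotensin peptides. It had 66.3, 128 and 129 CPM in HFD TKO libraries, against 31.1, 30.8 and 30.7 CPM in HFD WT libraries. The HFD WT libraries varied by 0.739% (coefficient of variation), which is less than their counting error of 3.54% to 3.79%. Every HFD TKO library lay above the HFD WT ones, replicate 1 the least. Agt was 3.27-fold higher in TKO on HFD (1.71 ± 0.28; limma, adjusted p = 0.00032). It had 245, 304 and 332 CPM in ND TKO libraries, against 337, 466 and 218 CPM in ND WT libraries, which enclosed them, and the change of -0.16 (95% interval -0.76 to 0.45) was not called (limma, adjusted p = 0.802).

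Like Retn and Cfd, Agt fell on the high-fat diet in both genotypes. It was 10.2-fold lower in WT (-3.35 ± 0.28; limma, adjusted p = 9.67e-07) and 2.80-fold lower in TKO (-1.49 ± 0.28; adjusted p = 0.00414). The interaction was 1.87 ± 0.39 (limma, adjusted p = 0.00391), and the 4 calls of Agt held under every alternative run.

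Apln (chrX:48025146-48034853), the gene of apelin, a peptide that acts on heart and vessels, was the lowest member. It had 26.2, 17.5 and 13.5 CPM in HFD TKO libraries, against 14.1, 11.4 and 14.6 CPM in HFD WT libraries, and the groups overlapped. It had 12.7, 11.1 and 10.8 CPM in ND TKO libraries, against 4.72, 5.72 and 9.90 CPM in ND WT libraries, which lay lower in every library. These levels rest on 99 to 563 reads, which alone give a counting error of 4.21% to 10.1%.

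Apln was called in a single comparison, being 1.91-fold higher on HFD in WT (0.93 ± 0.25; limma, adjusted p = 0.00653). The TKO effects of 0.44 on HFD (95% interval -0.10 to 0.98; limma, adjusted p = 0.168) and 0.74 on ND (95% interval 0.20 to 1.28; adjusted p = 0.101) were not called. On ND it was called without ND WT replicate 3 (1.02, adjusted p = 0.0134) and without that library and HFD TKO replicate 1 (adjusted p = 0.00141), in a range up to 0.308. On HFD it was called by DESeq2 (0.66, adjusted p = 0.0468, in a range up to 0.543) and turned to -0.43 when scaled to adipocyte genes.

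The diet change of Apln in TKO, 0.63 ± 0.25, was not called (limma, adjusted p = 0.0897), although the groups did not overlap. A limma fit of the TKO groups alone with the replicate block called it (adjusted p = 0.0165). That alternative was not planned and rests on same-numbered TKO libraries deviating together in these same data. The labels do not say that equal replicate numbers share an animal, litter or day. It was also called without HFD TKO replicate 3 (0.84, adjusted p = 0.0495), without ND WT replicate 3 (adjusted p = 0.0341) and with adipocyte scaling (0.89, adjusted p = 0.0121), in a range up to 0.291. The interaction of -0.30 (95% interval -1.07 to 0.46) was not called (limma, adjusted p = 0.565), but was without ND WT replicate 3 and HFD TKO replicate 1 together (-0.82, adjusted p = 0.0111) and with adipocyte scaling (-1.17, adjusted p = 0.00999), in a range up to 0.88.

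Nampt (chr12:32820335-32853369), which encodes an NAD salvage enzyme also found outside cells, had 196, 217 and 206 CPM in HFD TKO libraries, against 168, 161 and 169 CPM in HFD WT libraries. It had 205, 285 and 259 CPM in ND TKO libraries, against 235, 279 and 218 CPM in ND WT libraries. The HFD groups did not overlap and the ND groups did. The non-coding gene Gdap10 overlaps Nampt on the same strand and is counted separately, so the level of Nampt is uncertain.

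Nampt was 1.24-fold higher in TKO on HFD (0.31 ± 0.12; limma, adjusted p = 0.0452) in CPM as deposited, but lower (-0.55, adjusted p = 0.00118) when scaled to adipocyte genes. The call was lost without the filter on low values (adjusted p = 0.0624) and without any single HFD library: HFD TKO replicate 1 (0.35, 0.0522), 2 (0.28, 0.125) or 3 (0.31, 0.0947) or HFD WT replicate 1 (0.32, 0.0899), 2 (0.29, 0.115) or 3 (0.32, 0.0838). It was also lost without ND TKO replicate 3 (adjusted p = 0.0572) or ND WT replicate 1 (adjusted p = 0.0575), in a range that began at 0.000704. The change on ND of 0.03 (95% interval -0.23 to 0.28) was not called (limma, adjusted p = 0.927).

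On the high-fat diet Nampt was 1.46-fold lower in WT (-0.55 ± 0.12; limma, adjusted p = 0.00173), which turned to higher with adipocyte scaling (0.58, adjusted p = 0.000738). In TKO the diet change of -0.26 (95% interval -0.52 to -0.01) was not called (limma, adjusted p = 0.131). It was called with TMM scaling (-0.34, adjusted p = 0.0488), edgeR (-0.36, adjusted p = 0.0498), DESeq2 (-0.35, adjusted p = 0.0224) and without ND TKO replicate 1 (-0.40, adjusted p = 0.0228), in a range up to 0.988. The interaction of 0.29 (95% interval -0.08 to 0.65) was not called (limma, adjusted p = 0.229) and turned to -0.58 (adjusted p = 0.01) with adipocyte scaling.

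**Figure D2:**
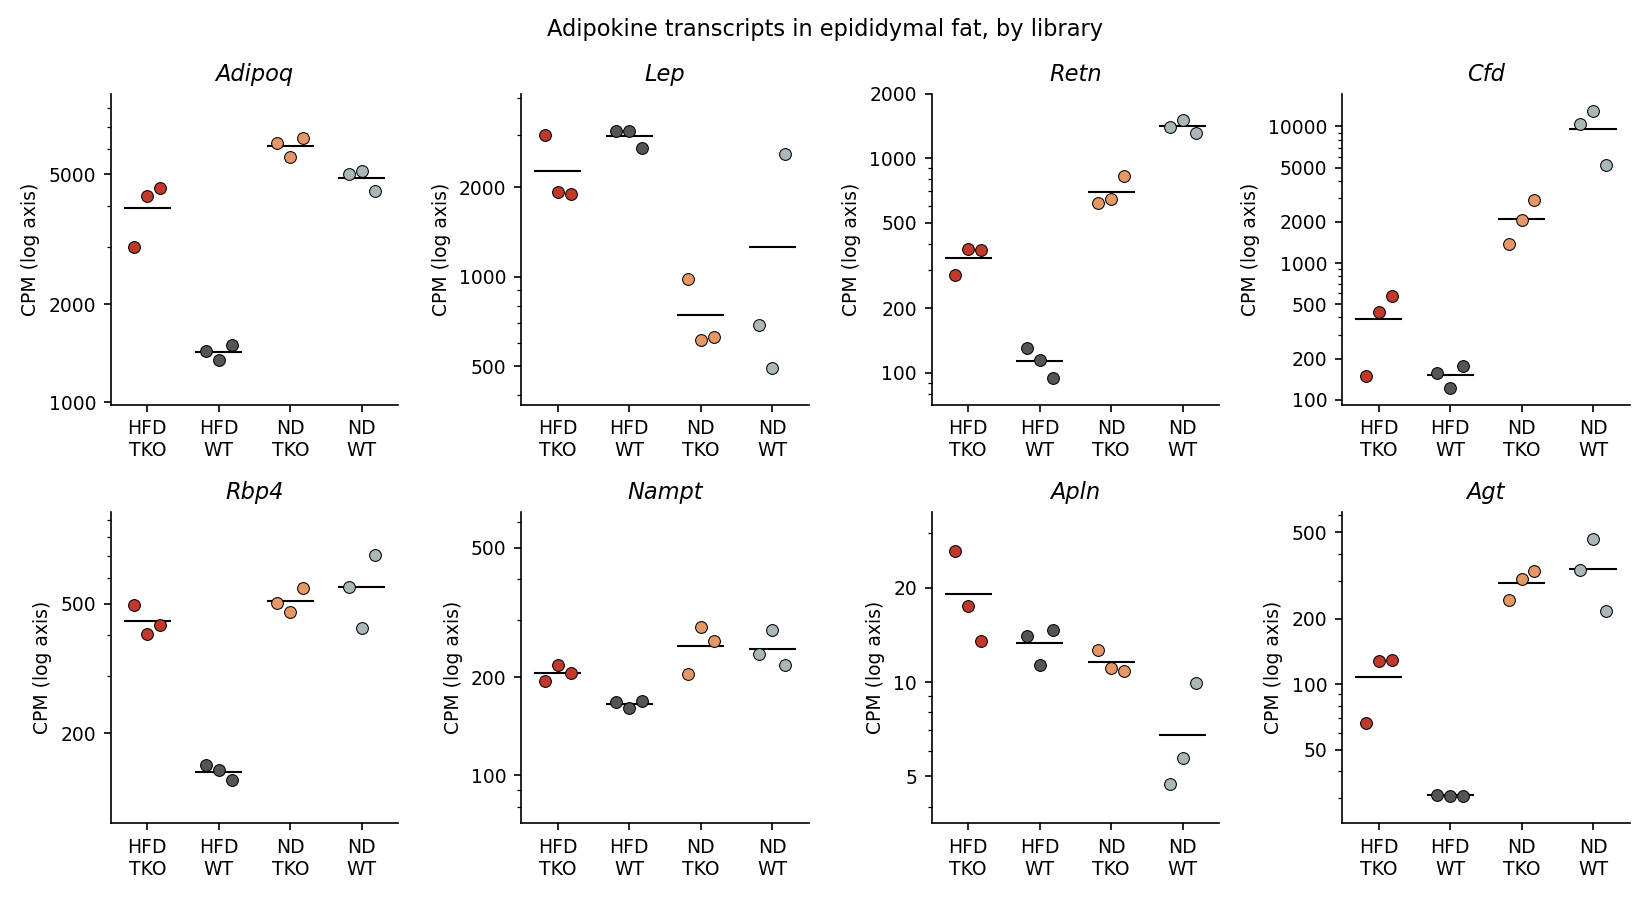
CPM of the 8 members on a log axis in each library, by group, with the group mean as a line. ND WT replicate 3 lies at 2588 CPM of Lep beside 689 and 495 CPM in the other ND WT libraries, and HFD TKO replicate 1 at 150 CPM of Cfd beside 440 and 573 CPM.

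Lep and Cfd varied most between replicates. The residual SD of log2(CPM + 1) around the group means was 0.688 for Lep and 0.684 for Cfd, beside a median of 0.160 over the 15597 genes tested. Only 181 genes varied more than Lep and 184 more than Cfd, which places both at percentile 98.8. Among the 1893 genes with a mean of at least 100 CPM, where the median was 0.119, 12 varied more than Lep and 13 more than Cfd. The other members were at 0.402 (Agt), 0.350 (Apln), 0.214 (Rbp4), 0.204 (Retn), 0.182 (Adipoq) and 0.157 (Nampt), the last of which lay below the median gene.

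**Figure D3:**
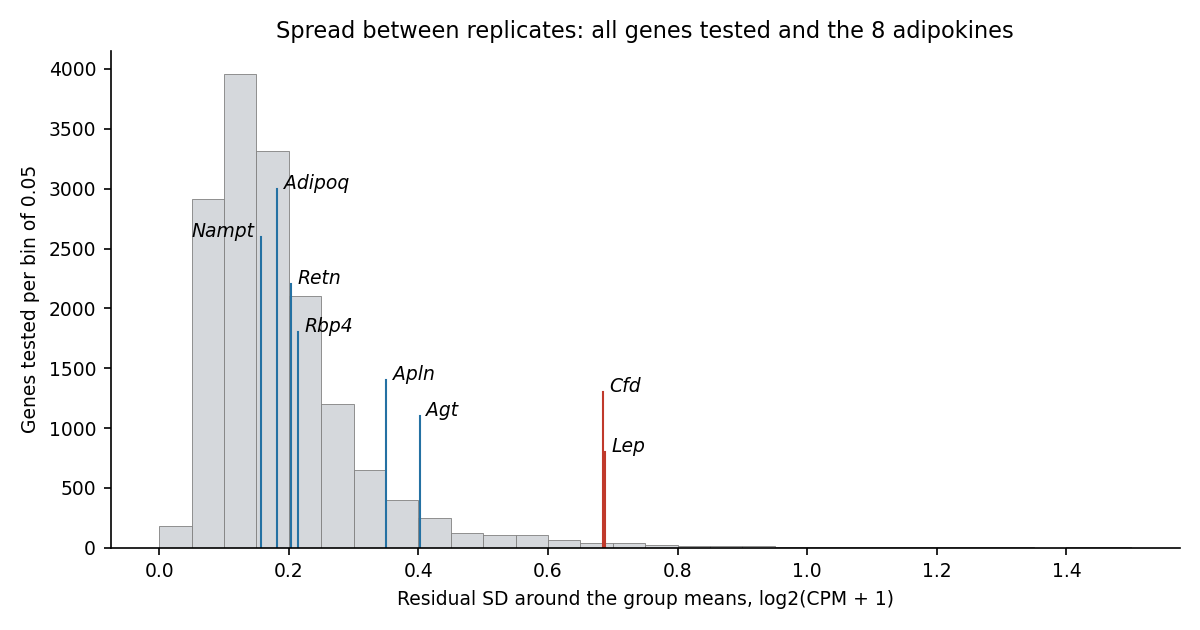
Number of genes by residual SD of log2(CPM + 1) around the group means, with the 8 members marked by lines whose height carries no value. Lep at 0.688 and Cfd at 0.684 lie in the far right tail and Nampt at 0.157 lies near the median of 0.160.

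The spread of Lep was by far the widest in ND WT fat, while that of Cfd was shared by HFD TKO, ND WT and ND TKO fat. Within groups, the highest library of Lep was 1.59 times the lowest in HFD TKO, 1.14 times in HFD WT, 1.61 times in ND TKO and 5.23 times in ND WT. For Cfd the ratio was 3.82 in HFD TKO, 1.43 in HFD WT, 2.09 in ND TKO and 2.50 in ND WT. Without ND WT replicate 3 the residual SD of Lep was 0.321. With any 1 library left out, that of Cfd stayed between 0.498 and 0.731. Without both ND WT replicate 3 and HFD TKO replicate 1 it was 0.269 for Lep and 0.372 for Cfd. Both libraries had been singled out by their values, so a lower SD without them was bound to follow. The median gene's 0.160 belongs to the fit of all 12 libraries and is not a like comparison for these values.

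In each group, the library highest in Lep lay below the group mean in Cfd. ND WT replicate 3 deviated from its group mean by 1.43 in Lep, -0.78 in Cfd, -0.57 in Agt and 0.54 in Apln on the log2 scale. HFD TKO replicate 1 deviated by 0.43 in Lep, -1.16 in Cfd, -0.63 in Agt and 0.49 in Apln. ND TKO replicate 1 deviated by 0.44 in Lep, -0.55 in Cfd and -0.25 in Agt. In 11 of 12 libraries Lep and Cfd lay on opposite sides of their group means, in 11 of 12 Cfd and Agt lay on the same side, and in 10 of 12 Lep and Apln did. Cfd and Nampt shared a side in 11 of 12, and Agt and Nampt, and Adipoq and Cfd, in 10 of 12. Lep and Nampt, Lep and Agt, and Agt and Apln were opposite in 10 of 12. The remaining pairs were less one-sided, down to 6 of 12 for Rbp4 and Retn. Such counts were not determined for genes at large. Deviations within a group of 3 sum to 0, so these libraries are not 12 independent points. ND WT replicate 3 and HFD TKO replicate 1 also stood apart from their groups over genes at large. Their deviations are thus not particular to the members.

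**Figure D4:**
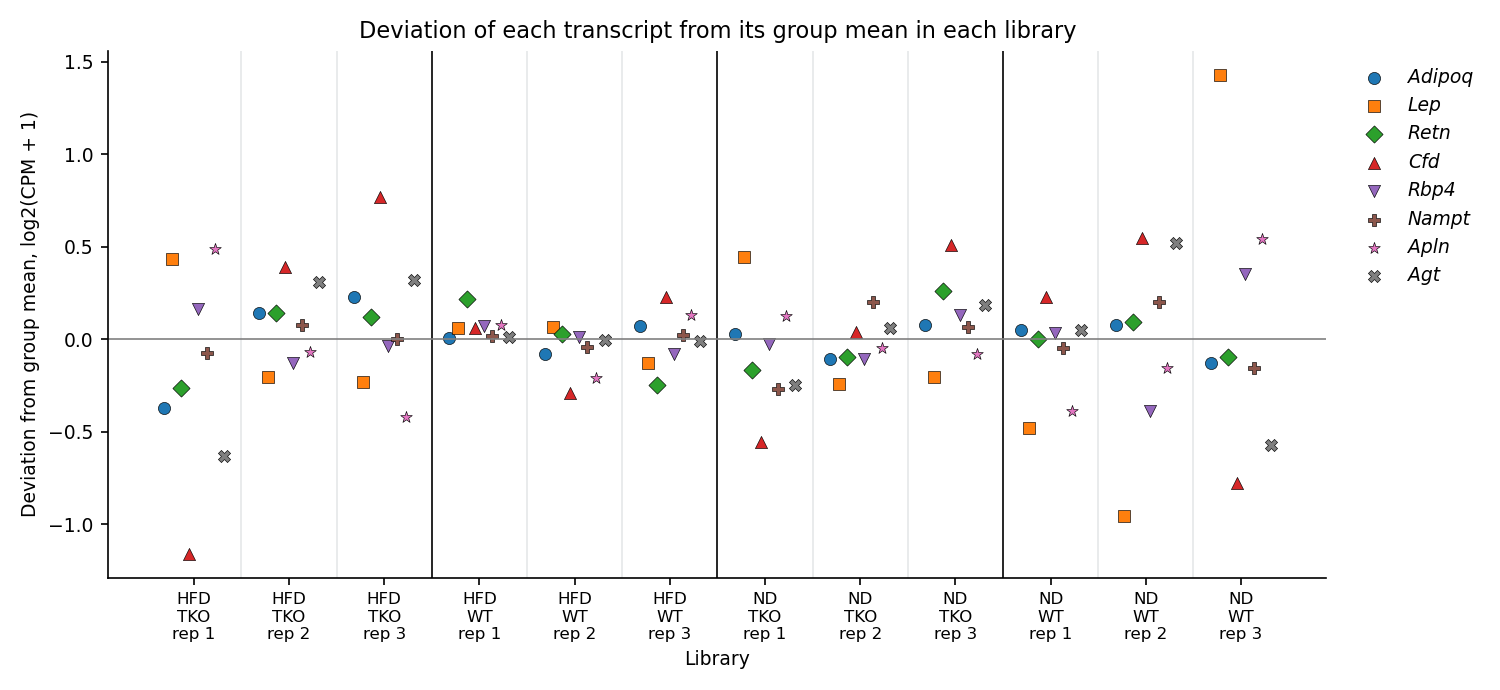
Deviation of each library from its group mean in log2(CPM + 1), for the 8 members. ND WT replicate 3 and HFD TKO replicate 1 are both high in Lep (1.43 and 0.43) and low in Cfd (-0.78 and -1.16).

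HFD TKO replicate 1 also differed in other tissue markers. Its 5 mesothelial genes, the lining of the fat pad, summed to 37.5 CPM, against 174 and 158 CPM in HFD TKO replicates 2 and 3. In ND WT replicate 3 that sum was 338 CPM, against 280 and 226 CPM in replicates 1 and 2 of its group. The part of the mesothelial level in the members' values was not tested.

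The ratio of Lep to Adipoq, a description of both genes at once, was higher in every HFD WT library than in any library of the other groups, and the ND groups overlapped. On the log2 scale it was -0.81 ± 0.70 in HFD TKO, 1.05 ± 0.18 in HFD WT, -3.08 ± 0.37 in ND TKO and -2.33 ± 1.37 in ND WT (SD, n = 3 each). The HFD WT libraries all lay above 0, at 1.11, 1.20 and 0.85. HFD TKO replicate 1 stood near 0 and the other HFD TKO libraries at -1.16 and -1.27. ND WT replicate 3, at -0.78, lay within the range of the HFD TKO libraries and far above the others of its group, at -2.86 and -3.36.

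Levels between genes were compared as CPM per kilobase of transcript. In HFD TKO fat Adipoq led with 3056, followed by Lep (697), Cfd (420), Retn (395) and Rbp4 (382), of which neighbours overlapped, then Agt (57.1) and Nampt (45.6), which overlapped too, and Apln (6.05). In HFD WT fat Adipoq (1106) and Lep (911) were followed by Cfd (165), Rbp4 (132) and Retn (130), which overlapped, then Nampt (36.6), Agt (16.3) and Apln (4.24). In ND TKO fat Adipoq (4735) stood above Cfd (2297), Retn (799), Rbp4 (440), Lep (227), Agt (155), Nampt (55.2) and Apln (3.67), with no overlap between neighbours. In ND WT fat Cfd led with 10400, above Adipoq (3758), Retn (1611), Rbp4 (484), Lep (386), Agt (180), Nampt (53.9) and Apln (2.15), where Rbp4, Lep and Agt overlapped as neighbours. Cfd was thus the highest member in ND WT fat, whereas Adipoq was in the other 3 groups.

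Scaling each library to the mean log2(CPM + 1) of the 12 adipocyte genes gave the members' levels relative to adipocyte transcripts. That mean overlapped between ND TKO (10.67 to 10.81) and ND WT (10.72 to 10.78) libraries, unlike the CPM sums of the same genes. The scaling moved the median log2 change of all genes to -0.97 in HFD TKO against HFD WT, beside -0.10 in CPM. In HFD WT against ND WT it moved that median to 1.26, beside 0.13. Under this scaling Adipoq was still higher in TKO on HFD (0.58; limma, adjusted p = 0.00264), as were Retn (0.73, adjusted p = 0.000194), Rbp4 (0.66, adjusted p = 0.00137) and Agt (0.85, adjusted p = 0.0081). Lep was called lower (-1.28, adjusted p = 0.0198), and Cfd was not called (0.29, adjusted p = 0.534). In WT the diet change was -0.64 for Adipoq, -2.50 for Retn, -4.76 for Cfd, -0.72 for Rbp4, -2.23 for Agt, 2.06 for Apln and 2.75 for Lep, each called.

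**Figure D5:**
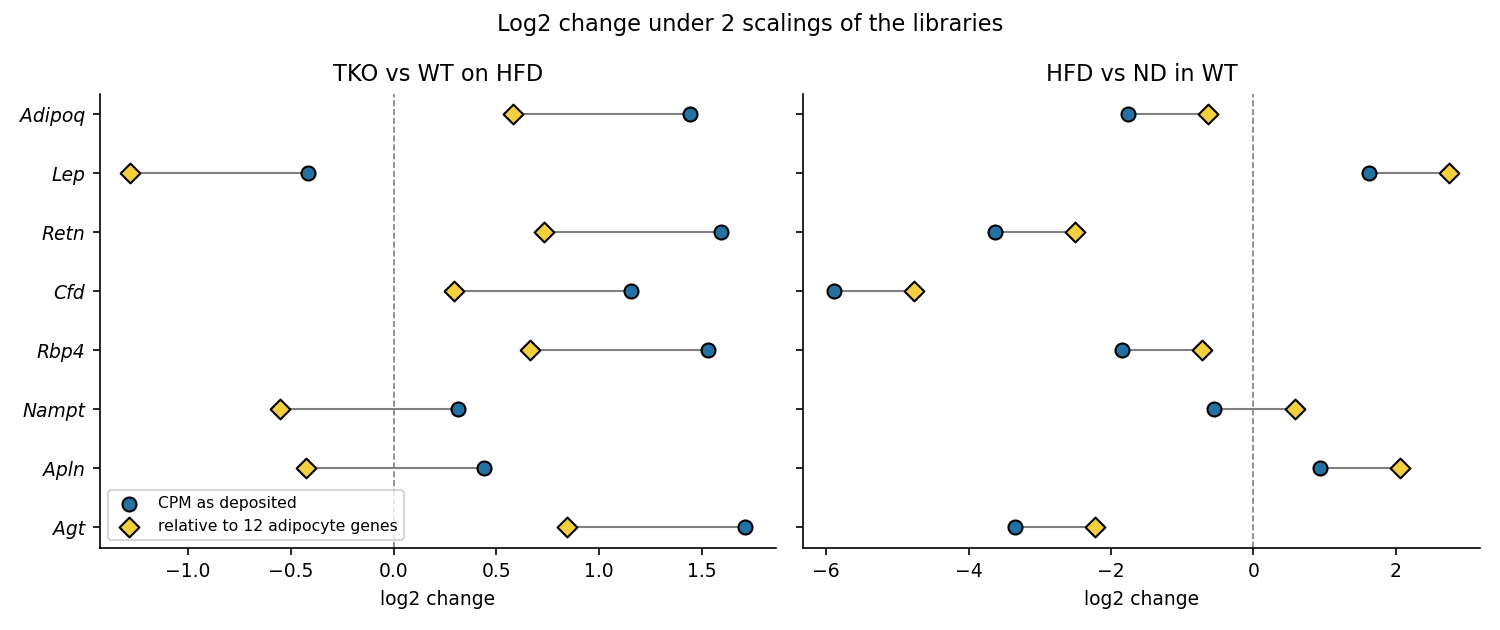
Log2 change of the 8 members in HFD TKO against HFD WT (left) and HFD WT against ND WT (right), in CPM as deposited (circles) and relative to 12 adipocyte genes (diamonds). Adipoq moves to 0.58, beside 1.44 in CPM, and Lep to -1.28, beside -0.42, while Nampt and Apln turn to below 0 in the left panel.

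Receptors and partners of the members were a list of 26 genes, of which 19 were tested; among the others were Ren1, Ttr, Apela, Agtr1b, Agtr2 and Mas1. In TKO fat on HFD, 4 were higher, 10 lower and 5 not called, with a median of -0.24. Of all genes tested, 15.2% were called higher and 31.6% lower there, with a median of -0.10. C3, the central complement component, averaged 1179 ± 84.0 CPM in HFD TKO and 3774 ± 482 CPM in HFD WT fat (SD, n = 3 each; -1.67 ± 0.17, limma, adjusted p = 9.99e-06). Factor B (Cfb), which adipsin cleaves, averaged 308 ± 22.6 CPM in HFD TKO and 687 ± 35.2 CPM in HFD WT fat (-1.16 ± 0.12; limma, adjusted p = 1.33e-05). Masp1, a complement protease of the same list that is named after its values were seen, was higher, with 6.44 ± 1.45 CPM in HFD TKO and 2.83 ± 0.839 CPM in HFD WT fat (0.96 ± 0.21; limma, adjusted p = 0.00268). C3ar1, the receptor of the C3a peptide, was lower by the most of the list (-2.80 ± 0.17; limma, adjusted p = 2.97e-07). The macrophage sum was lower in HFD TKO than in HFD WT libraries too, and its part in these changes was not tested.

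The adiponectin receptor Adipor1 was called in no comparison, with 161 ± 7.81 CPM in HFD TKO, 157 ± 4.38 CPM in HFD WT, 167 ± 8.13 CPM in ND TKO and 169 ± 5.39 CPM in ND WT fat (SD, n = 3 each). Adipor2 was lower on HFD in TKO (-0.77; limma, adjusted p = 0.0269) and in WT (-0.83, adjusted p = 0.00647), where the sign turned with adipocyte scaling (0.30). Cdh13, which binds adiponectin at the cell surface, was higher in TKO on ND (0.44, adjusted p = 0.0419) and on HFD (0.31, adjusted p = 0.0367), the HFD difference turning to -0.55 with adipocyte scaling. The leptin receptor Lepr lay at 4.42 ± 0.476 CPM in HFD TKO and 7.81 ± 2.33 CPM in HFD WT fat (-0.67 ± 0.24; limma, adjusted p = 0.0403). Of these receptor calls, that of Lepr was lost under 10 of 22 alternatives (adjusted p up to 0.166), Adipor2 in TKO under 6 of 23 (up to 0.0938), and Cdh13 under 12 of 22 on ND (up to 0.127) and under or turned by 7 of 22 on HFD (up to 0.138). The apelin receptor Aplnr was 1.21 higher on HFD in WT (log2; limma, adjusted p = 0.000737).

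Of the 19 receptors and partners, 1 was called in TKO fat on ND (Cdh13, higher), where 5.7% of all genes were called. The diet called 10 higher and 6 lower in WT, where 37.8% of all genes were higher and 20.3% lower. In TKO it called 4 higher and 2 lower, beside 16.2% and 5.9% of all genes. Stra6l, a relative of the Rbp4 receptor Stra6, rose on HFD in WT (2.47; limma, adjusted p = 4.99e-07) and was lower in HFD TKO than in HFD WT fat (-1.88, adjusted p = 7.41e-06). It averaged 6.58 CPM in HFD WT, 1.09 CPM in HFD TKO, 0.262 CPM in ND TKO and 0.374 CPM in ND WT fat. At such low levels the size depended on the setting, with 1.11 to 3.99 for the diet in WT and -2.74 to -0.93 for TKO on HFD. Stra6 itself averaged 0.127 to 0.230 CPM in 3 groups, near the limit of 3 reads, and 0.775 CPM in ND WT fat. It was lower on HFD in WT (-0.65; limma, adjusted p = 0.00535), which turned to 0.47 with adipocyte scaling. Agtr1a, the angiotensin receptor, was lower on HFD in TKO (-0.41; limma, adjusted p = 0.0175). It stayed below 0 there under every alternative run (-0.53 to -0.15), with the call lost under 5 of 23 (adjusted p up to 0.304). In WT it was lower on HFD too (-0.27, adjusted p = 0.046) but higher with adipocyte scaling (0.86). That call in WT was lost or turned under 11 of 22 alternatives (adjusted p up to 0.129).

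Other secreted factors of fat were a list of 24 genes, of which 21 were tested; Serpina12, Itln1 and Retnlg were not. On ND, 2 were higher and 2 lower in TKO fat, beside 2.16% higher and 3.54% lower of all genes. Among the higher was Angptl4, an inhibitor of lipoprotein lipase (0.48; limma, adjusted p = 0.045). Nrg4, a fat-derived growth factor, averaged 54.3 ± 14.0 CPM in ND TKO and 131 ± 4.12 CPM in ND WT fat (-1.29 ± 0.16; adjusted p = 0.00118), and Enpp2, the enzyme autotaxin, was lower (-0.61, adjusted p = 0.0396). The call of Nrg4 held under every alternative run, while that of Angptl4 was lost under 13 of 22 (adjusted p up to 0.162) and that of Enpp2 under 10 of 22 (up to 0.133).

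On HFD, 4 of the 21 were higher and 5 lower in TKO fat, beside 15.2% higher and 31.6% lower of all genes. Retnla, a paralog of Retn that macrophages are known to make, averaged 575 ± 78.7 CPM in HFD TKO and 87.2 ± 47.4 CPM in HFD WT fat (2.82 ± 0.37; limma, adjusted p = 7.32e-05). The summed macrophage markers lay lower in HFD TKO than in HFD WT fat, and their part in the change of Retnla was not tested. Lcn2 (-1.62, adjusted p = 0.0379) and Metrnl (-1.52, adjusted p = 1.59e-05) were lower, and C1qtnf12, an adiponectin relative, was higher in CPM (0.78, adjusted p = 3.96e-05) but not with adipocyte scaling (-0.08). The diet called 8 higher and 6 lower in WT, where 37.8% of all genes were higher and 20.3% lower. In TKO it called 5 higher and 4 lower, beside 16.2% and 5.9% of all genes. Retnla was lower on HFD in WT (-1.83; limma, adjusted p = 0.00127) and higher in TKO (1.22, adjusted p = 0.0374), with an interaction of 3.04 (adjusted p = 0.00129). The calls lost under other settings were those of Lcn2, under 11 of 22 alternatives (adjusted p up to 0.136), and of Retnla for the diet, under 1 of 22 in WT (adipocyte scaling, 0.0943) and 9 of 23 in TKO (up to 0.098).

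Transcription factors and coactivators that act on these genes were a list of 15, all tested, with 9 higher and 3 lower in TKO fat on HFD. Of all genes, 15.2% were higher and 31.6% lower there. Klf15 averaged 55.8 ± 7.54 CPM in HFD TKO and 17.8 ± 0.936 CPM in HFD WT fat (1.58 ± 0.11; limma, adjusted p = 4.68e-07). Pparg, the master regulator of fat cells, was 0.46 higher (adjusted p = 0.00373) and Cebpa 0.72 higher (adjusted p = 0.000247) in CPM, and both turned negative (-0.41 and -0.15) with adipocyte scaling, whose 12 genes include them. On HFD in WT, 3 were higher and 10 lower, beside 37.8% higher and 20.3% lower of all genes. Klf15 was among the lower (-2.01; limma, adjusted p = 3.91e-08), and Hif1a (1.33, adjusted p = 2.7e-05) and Cebpd (1.90, adjusted p = 0.000475) among the higher. On HFD in TKO, 3 were higher and none lower of the 15 (0 lower at an unadjusted p under 0.05 in limma), led by Cebpb (1.18, adjusted p = 0.00116). Of all genes, 16.2% were higher and 5.9% lower in that comparison. On ND, Cebpd was higher in TKO (1.51, adjusted p = 0.0243) and Bhlhe40 lower (-1.02, adjusted p = 0.00149), of which the call of Cebpd was lost under 5 of 22 alternatives (adjusted p up to 0.0996).

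The NAD salvage genes around Nampt were a list of 12, all tested. In TKO fat on HFD 2 were higher and 2 lower, beside 15.2% higher and 31.6% lower of all genes. On ND none was called by limma, edgeR or DESeq2, with 1 at an unadjusted p under 0.05 in limma. Of all genes, limma called 5.7% on ND. Nnmt, which consumes the substrate of Nampt, averaged 293 ± 69.5 CPM in HFD TKO and 157 ± 21.0 CPM in HFD WT fat (0.88 ± 0.14; limma, adjusted p = 0.000388). With adipocyte scaling it was not called (adjusted p = 0.947). Qprt, an enzyme of the route to NAD that does not use Nampt, was lower (-1.23; limma, adjusted p = 1.84e-05). Its level was low, at 0.522 CPM in HFD TKO and 2.58 CPM in HFD WT fat, and its change ran from -2.17 to -0.46 over the alternatives. On HFD, 2 were higher and 4 lower in WT, beside 37.8% higher and 20.3% lower of all genes. In TKO, 2 were higher and 2 lower on HFD, beside 16.2% and 5.9% of all genes.

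The genes most like each member were found by the root mean square difference of z-scores over the 12 libraries, in which a small value means a like profile. Nearest to Agt were Aldh2 (0.101), Fam13a (0.116) and Pnpla2 (0.119), the last of which is the main triglyceride lipase of fat cells and 1 of the 12 adipocyte genes. Nearest to Adipoq was Ppp1r37 (0.140), to Retn Opn3 (0.150), to Cfd Slc25a26 (0.129), to Rbp4 Grina (0.172), to Lep Paqr7 (0.205), to Nampt Ttc19 (0.243) and to Apln Degs1 (0.303). Among the 5 nearest to Retn was also Pck1 (0.192), a gene of glyceride synthesis in fat. Over deviations from the group means alone, 1700047G03Rik (0.0800), Lbp (0.123) and Mogat2 (0.131) were nearest to Lep, and Pde1a (0.209), S100a1 (0.246) and Por (0.249) to Cfd. Lep deviated most in ND WT replicate 3 (1.43), a library that differed over genes at large. There 1700047G03Rik had 28.6 CPM, against 4.34 and 2.40 CPM in ND WT replicates 1 and 2. Lbp had 322 CPM, against 120 and 76.5 CPM, and Mogat2 12.6 CPM, against 3.34 and 1.71 CPM. The 12 libraries share 4 group means, so that likeness over all values is mostly likeness of group levels.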

How the data were processed

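The deposited table held 1 value per gene and library in CPM, per the file headers. The submitters' processing notes name DESeq2, featureCounts 2.0.0, STAR 2.7.3a and the build mm10. Which of these tools made the CPM values, and whether counting used strand, was not given in the sources used here. The deposited CPM values came out as whole reads for 100% of values (tolerance 0.05 read) after an offset of 0.01 read. The 3 genes without a symbol held 0.0313% to 0.0679% of a library and were left out.

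All 12 libraries entered 1 limma 3.58.1 fit (R 4.3.3) on log2(CPM + 1) with trended variance, group means and 8 residual degrees of freedom, over genes with at least 0.5 CPM in at least 3 libraries. Fold changes are on that scale and understate the change of low genes. P-values were adjusted by Benjamini-Hochberg over all 15597 genes and called at 0.05. Intervals are 95%. Alternatives were edgeR 4.0.16 and DESeq2 1.42.0 on the recovered reads, other pseudocounts (0.25 and 5), no filter, TMM scaling (factors 0.914 to 1.12), scaling to 12 adipocyte genes, the compared groups alone, a replicate block and leaving out libraries. On the recovered reads edgeR called 4332 genes for the interaction, 7346 for TKO on HFD, 848 for TKO on ND, 8889 for HFD in WT and 2873 for HFD in TKO. The limma step was tested on simulated data.

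The members, lists and tests were chosen with earlier results of these data known. Members were named in every comparison, and of each list the called genes with the largest change (up to 4 per comparison) and those that pair with a member. For each member the 5 nearest genes were ranked, of which the first ones are named. Some listed genes are not reported here. Same-numbered libraries deviated together in HFD against ND in TKO (r of 0.39, 0.56 and 0.12 across genes). They were treated as paired there in an alternative that was not planned. In the other comparisons the r lay between -0.50 and 0.21. The labels give no batch. Gene positions and promoters are from RefSeq, transcript lengths from GENCODE M21.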

Additional observations from a re-analysis of the deposited data

Results flagged for a closer look

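For 5 members the TKO effect differed between the diets by a test of the difference itself, the interaction term in limma (the TKO effect on HFD less that on ND, log2). It was 3.30 ± 0.66 for Cfd (adjusted p = 0.003), 2.61 ± 0.21 for Retn (adjusted p = 1.26e-05), 1.87 ± 0.39 for Agt (adjusted p = 0.00391), 1.64 ± 0.22 for Rbp4 (adjusted p = 0.000209) and 1.11 ± 0.22 for Adipoq (adjusted p = 0.00321). Retn was called in opposite directions, higher in TKO on HFD and lower on ND. Adipocyte-gene sums differed between HFD TKO and HFD WT libraries as well, and with scaling to those genes the interaction of Adipoq was no longer called. That scaling cannot tell fewer fat cells and less RNA per cell apart.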

How the results depend on the processing

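The 5 calls of Retn, the 4 of Agt and the 3 of Rbp4 kept direction and call under every alternative run. The number of genes called was 889 for TKO on ND, but 1395 with DESeq2, 280 with only those groups, 350 to 1853 leaving out 1 library and 2773 without ND WT replicate 3 and HFD TKO replicate 1; the members called were then 1 to 3 with 1 library left out. For HFD in TKO it was 3446, and 1716 to 4296 with 1 library left out, while members called were 3 without the filter and 3 to 6 with 1 library left out. With adipocyte scaling 14218 genes were called for TKO on HFD, 14503 for HFD in WT, 8085 for HFD in TKO and 12955 for the interaction, since that scaling moves all genes. The residual SD lay between 0.321 and 0.735 for Lep and 0.498 and 0.731 for Cfd with 1 library left out, and at 0.269 and 0.372 without both named libraries.

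The replicate block in all 12 libraries changed no member's call. Members called were then 5 for the interaction, 5 for TKO on HFD and 2 for TKO on ND. They were 8 for HFD in WT and 5 for HFD in TKO. Blocked on the TKO groups alone, which was not planned, members called for HFD in TKO were 6, the added one being Apln.

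These signs turned, none of them with a call on both sides unless said. The interaction of Lep was 0.072 with TMM scaling, 0.46 with edgeR and DESeq2, -0.72 to 0.47 with 1 library left out and -0.94 without both named libraries. For TKO on ND, leaving out 1 library gave -0.88 to 0.31 for Lep, -0.31 to 0.067 for Rbp4, -0.074 to 0.16 for Nampt and -0.44 to 0.10 for Agt, and leaving out both named ones gave 0.31 for Lep, 0.067 for Rbp4 and -0.050 for Nampt. With adipocyte scaling, Nampt was -0.55 (TKO on HFD, called), 0.58 (HFD in WT, called), 0.0029 (HFD in TKO) and -0.58 (interaction), Apln -0.43 (TKO on HFD) and Rbp4 0.060 (HFD in TKO). For listed genes it gave, in TKO on HFD, Cdh13 -0.55, Pparg -0.41, Sirt3 -0.37, Cebpa -0.15, Ppargc1a -0.10, C1qtnf12 -0.081 and Srebf1 -0.062; for HFD in WT, Agtr1a 0.86, Stra6 0.47, Pparg 0.46, Naprt 0.42, Sirt3 0.35 and Adipor2 0.30; and for the interaction, Nmnat2 -0.26, Pparg -0.24, Sirt3 -0.22, Srebf1 -0.094 and Nnmt -0.052. Of these, Cdh13, Pparg and Sirt3 were called on both sides in TKO on HFD, and Agtr1a, Stra6, Pparg, Naprt and Sirt3 in HFD in WT. The causes were not tested. With 3 mice a group, changes of Lep and Cfd smaller than their intervals could not be told from the spread.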
